A study of Mus musculus with 4 samples.

Results

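The cadherin superfamily and its catenins were examined for RNA bound by DHX9, a helicase that opens RNA duplexes. The group held the 50 autosomal protein-coding genes named Cdh or Pcdh followed by digits, together with Fat1 to Fat4, Dchs1 and Dchs2, Celsr1 to Celsr3, Clstn1 to Clstn3, Ctnna1 to Ctnna3, and Ctnnd1 and Ctnnd2. Members were chosen by name, and a peak was counted for a gene when its midpoint lay within the gene's RefSeq span on mm10. Of 43106 peaks in the series, 630 fell in 19 of the 50 genes. The clustered protocadherins and the X-linked Pcdh19 were not members.

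The data came from mouse neural progenitor cells derived from WT26, a feeder-independent male embryonic stem cell line of strain C57BL/6x129sV, and kept in N2B27 medium with EGF and FGF2. DHX9 was mapped by FLASH, in which ultraviolet light crosslinks protein to RNA and the RNA recovered with an antibody is sequenced so that its strand is known. The antibody labelled DHX9-Rb was used for 2 libraries and the control labelled IgG-Rb for 2, replicates A and B of each. All came from the same line, and the labels name no genetic change and no other treatment. The peaks formed 1 list for all 4 libraries, with no count or score for a peak, so no error between replicates could be given and no test between groups was possible. Depth was unknown and RNA levels were not measured, so a gene without a peak is only a gene without a called peak. A low number of peaks from fewer cells making an RNA, from less RNA in each cell and from weaker binding cannot be told apart.

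Cadherins are calcium-dependent adhesion receptors whose outer repeats bind cadherins on the next cell. Classical cadherins hold p120 and beta-catenin on their inner tails, and alpha-catenin passes the link on to actin. Protocadherins lack these catenin-binding tails and sort neurons and their contacts, whereas Fat, Dachsous and Celsr proteins set planar polarity and growth. In the neural tube, N-cadherin junctions near the ventricle hold the progenitors in an epithelium.

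Of the 11 neural progenitor markers examined, 6 held a peak: Nfia with 339 peaks, Nfib with 206, Slc1a3 with 122, Ptprz1 with 64, Fabp7 with 4 and Vim with 1. Sox2, Nes, Pax6, Hes1 and Hes5 had none. None of 5 pluripotency markers and none of 6 astrocyte and oligodendrocyte markers held a peak, and of 6 neuron markers Map2 did, with 46. Over all autosomal protein-coding genes 19.4% held a peak, with 4.84% of those under 10 kb and 19.6% of those from 10 to 30 kb. The median span was 7.145 kb for the pluripotency markers and 20.01 kb for the astrocyte and oligodendrocyte markers. For lists this small and genes this short, holding no peak is near the background. Of 5 mesenchymal markers, Col3a1 held 28 peaks, Col1a1 held 7 and Col1a2 held 2. Whether cells of that kind contributed to peaks in the cadherin genes was not tested.

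Start sites are shown for 4 of the genes, in 3 of which a DHX9 peak began close to an annotated start. RefSeq promoter windows of GRCm38.p6 were matched for 35 of the 50 genes, and for 13 of the 19 with a peak, which had 15 start sites in all. A peak began within 1 kb after 3 of the 15 start sites, those of Ctnnd1, Cdh20 and Ctnnd2. Pcdh9, the gene with most peaks, is added for comparison. Each sequence runs 5′ to 3′ in the direction of transcription, with the 250 bases before the start in lower case and the 50 bases from the start on in capitals.
Ctnnd1 chr2:84650691-84650990 (minus strand): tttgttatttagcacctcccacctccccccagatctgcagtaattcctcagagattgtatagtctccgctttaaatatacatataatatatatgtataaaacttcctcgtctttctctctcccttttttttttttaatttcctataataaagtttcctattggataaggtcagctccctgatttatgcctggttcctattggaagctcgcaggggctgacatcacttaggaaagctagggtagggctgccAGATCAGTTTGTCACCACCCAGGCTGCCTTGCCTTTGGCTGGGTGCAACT
Cdh20 chr1:104768270-104768569 (plus strand): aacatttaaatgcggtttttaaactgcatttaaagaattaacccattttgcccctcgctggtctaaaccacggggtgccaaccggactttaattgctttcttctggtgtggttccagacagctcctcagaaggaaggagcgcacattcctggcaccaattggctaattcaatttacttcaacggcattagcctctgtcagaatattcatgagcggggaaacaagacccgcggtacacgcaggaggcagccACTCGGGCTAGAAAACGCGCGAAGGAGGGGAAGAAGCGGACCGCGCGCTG
Ctnnd2 chr15:30172284-30172583 (plus strand): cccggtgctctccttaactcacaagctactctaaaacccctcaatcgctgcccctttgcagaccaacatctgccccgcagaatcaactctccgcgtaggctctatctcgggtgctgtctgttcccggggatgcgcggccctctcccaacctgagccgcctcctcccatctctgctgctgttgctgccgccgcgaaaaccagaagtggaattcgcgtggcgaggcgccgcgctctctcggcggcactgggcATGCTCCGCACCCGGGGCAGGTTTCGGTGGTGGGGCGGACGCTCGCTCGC
Pcdh9 chr14:93890620-93890919 (minus strand): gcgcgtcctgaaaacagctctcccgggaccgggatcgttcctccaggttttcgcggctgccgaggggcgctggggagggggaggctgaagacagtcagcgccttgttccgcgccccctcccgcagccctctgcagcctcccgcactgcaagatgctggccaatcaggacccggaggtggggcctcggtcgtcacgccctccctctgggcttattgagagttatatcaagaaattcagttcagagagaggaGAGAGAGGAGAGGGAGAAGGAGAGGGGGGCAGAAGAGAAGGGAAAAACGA

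In Ctnnd1, which encodes p120, this start lies inside the gene, and a peak of 175 bases, chr2:84650509-84650683, began 57 bases after it. The outer Ctnnd1 start had no peak for the next 8294 bases. The first Cdh20 peak began 316 bases after the start, the first Ctnnd2 peak 814 bases after it, and the first Pcdh9 peak 1932 bases after the start printed here. That Ctnnd2 peak also lies in the long noncoding RNA gene Gm31953, on the same strand, so it cannot be assigned to either gene. No peak of the 13 genes with a window overlapped one of their windows. Of each window, 250 bases lie before the start and outside the RNA made from it, so little overlap was possible. The Ctnnd2 window is the 1 of the 4 that held a GC box (GGGCGG or, on the other strand, CCGCCC), and the Ctnnd1 window is the 1 that held a TATA motif (TATAAA or, on the other strand, TTTATA). The GC content was 42.7% with 3 CG pairs in the Ctnnd1 window, 50.7% with 18 in Cdh20, 64.7% with 28 in Ctnnd2 and 62.3% with 19 in Pcdh9.

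With 1 window a gene, the one at the lowest coordinate, 4 of the 13 genes with a peak held a GC box (30.8%) and 11 of the 22 without a peak did (50%). Among autosomal coding genes in the promoter table, the GC box was present in 68.6% of the 3193 with a peak and in 41.6% of the 13264 without, and in 45.9% of all 17492 coding windows. The TATA motif was found in 2 of the 13 (15.4%) and in 1 of the 22 (4.55%), against 5.54% of all autosomal genes with a peak, 15.4% of those without and 13.3% of all windows. Median GC content was 60.3% in the 13 and 61.0% in the 22, against 63.0% and 55.0% in all genes with and without a peak. These shares rest on few genes and are descriptions of the windows.

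Of the 50 genes, 19 held at least 1 peak (38.0%). The background was 19.4%, as 4008 of 20665 autosomal protein-coding genes held a peak. At least 10 peaks were found in 8 of the 50 (16.0%) against 5.00% of all, 2 to 9 peaks in 6 and exactly 1 in 5. Cadherin genes are long, with a median span of 125.4 kb against 17.49 kb over all genes, and the share with a peak rose with span in the background too. Among genes of at least 100 kb, 15 of 27 members held a peak (55.6%) and 39.9% of all 2313 genes did. Under 100 kb, 4 of 23 members (17.4%) and 16.8% of all genes held one. In genes of at least 100 kb, at least 10 peaks were found in 8 of 27 members (29.6%) and in 14.4% of all. Of the 23 shorter members 0 held as many, beside 3.81% of all genes under 100 kb.

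The peaks were unevenly shared out. Pcdh9 alone held 253 peaks, Ctnnd2 131, Cdh20 88 and Cdh4 70, which together came to 542 of the 630 (86.0%). Pcdh7 followed with 15, Ctnna1 with 13, Cdh11 with 12 and Fat1 with 11. Over the summed span of 15.16 Mb the group had 4.156 peaks per 100 kb, beside 4.116 over all autosomal coding genes. Members of at least 100 kb had 4.322 peaks per 100 kb beside 2.946 over all such genes. Members under 100 kb had 1.739 beside 5.805. The 4 leading genes all span at least 100 kb and held 542 of the 613 peaks in such members, so the 4.322 rests on them. Without its 4 leading genes the group's density was 0.6908 per 100 kb.

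**Figure D1:**
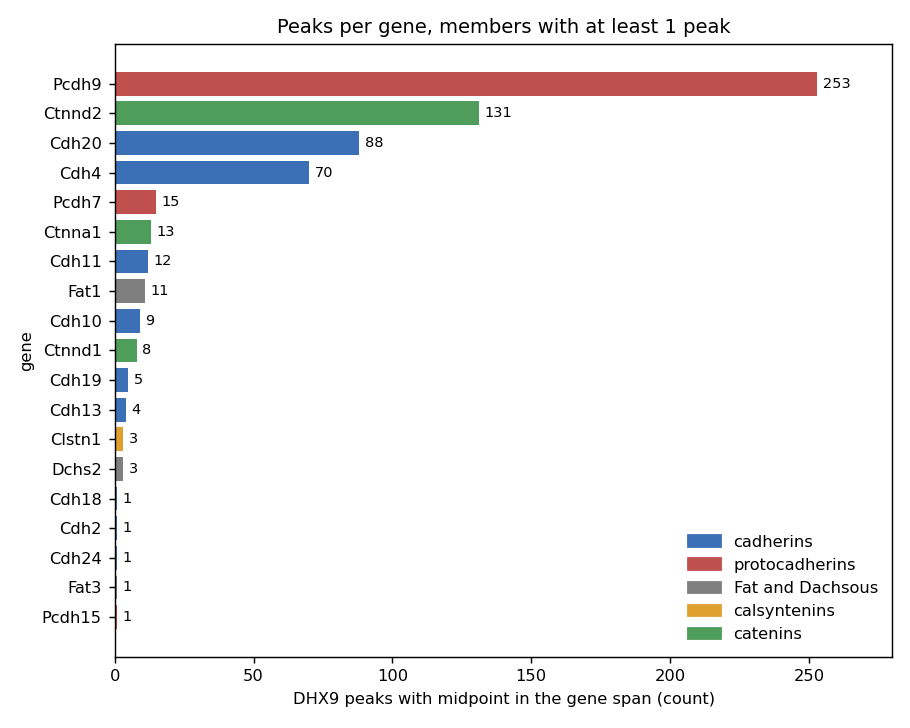
Number of DHX9 peaks (horizontal axis, count) with the midpoint in each of the 19 genes with a peak, coloured by family. Pcdh9 with 253, Ctnnd2 with 131, Cdh20 with 88 and Cdh4 with 70 peaks stand above the next gene, Pcdh7, with 15.

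In the plot of peaks for each gene, type I and type II cadherins share a colour. By class, these 4 genes are a delta protocadherin, a delta catenin, a type II cadherin and a type I cadherin. Peaks were found in 2 of 5 type I cadherins, 6 of 13 type II cadherins, 2 of 7 delta protocadherins and both delta catenins. They were also found in 1 of 5 other cadherins, 1 of 3 other nonclustered protocadherins and 3 of 6 Fat and Dachsous genes. Of the calsyntenins and of the alpha catenins, 1 of 3 each held a peak, and of the Celsr genes 0 of 3. Beside these small counts, 19.4% of all autosomal protein-coding genes held a peak, and 39.9% of those of at least 100 kb.

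Peak number followed span only weakly among the members. Spearman's rho between peaks and span was 0.44 over the 50 members, 0.05 over the 19 with a peak, and 0.33 over all 20665 genes. Genes are not independent replicates, and span also sets how many peaks a gene can hold. Cdh20 spans 227.14 kb and held 88 peaks, while Cdh2, of 220.37 kb, held 1. Among the longest members, Ctnna3 with 1573.6 kb, Cdh12 with 1149.5 kb, Ctnna2 with 1098.2 kb and Clstn2 with 588.98 kb held none, and Pcdh15 with 1553.6 kb held 1.

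**Figure D2:**
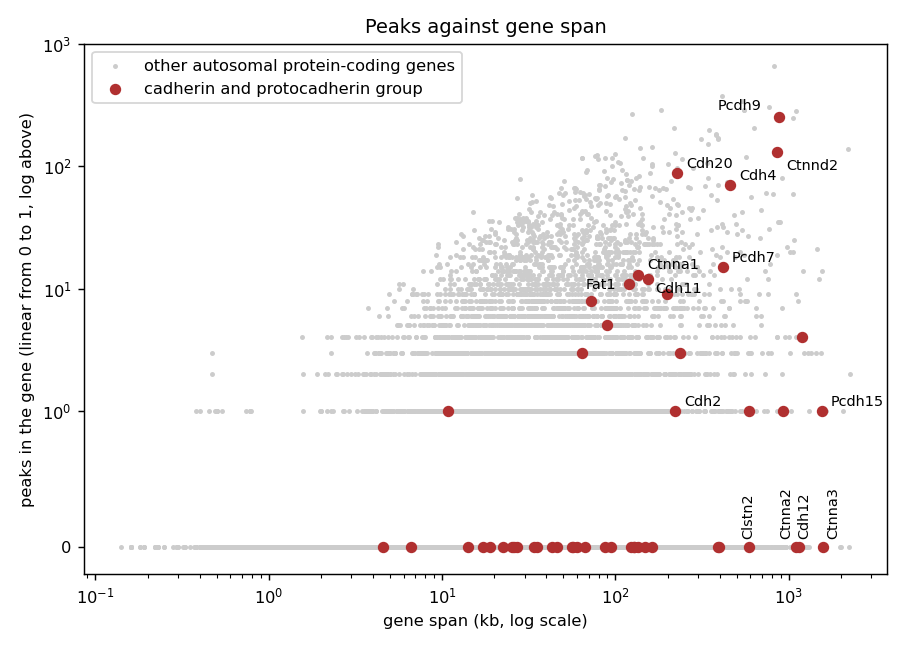
Peaks in each gene (vertical axis, linear from 0 to 1 and logarithmic above) against gene span in kb (log axis), for the 50 cadherin and protocadherin group genes in red and other autosomal protein-coding genes in grey. Pcdh9, Ctnnd2, Cdh20 and Cdh4 lie near the top of the cloud, while Ctnna3, Cdh12, Ctnna2 and Clstn2, all longer than 500 kb, lie at 0.

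In the plot against span, genes of 1000 kb or more held a peak in 50.9% of all cases and in 2 of 5 members, Pcdh15 and Cdh13. From 300 to 1000 kb it was 40.2% of all genes and 6 of 9 members. From 100 to 300 kb it was 39.6% and 7 of 13.

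Among the type I classical cadherins, Cdh4 and Cdh2 of the 5 genes held peaks. Cdh4 encodes R-cadherin, first known from the retina, and Cdh2 encodes N-cadherin, the main classical cadherin of neural progenitors. Cdh4 (chr2:179442423-179899377, 456.95 kb) held 70 plus-strand peaks, 15.3 per 100 kb, and ranked 71 among all 20665 genes by number of peaks. Its peaks lay toward 1 end: 64 of the 70 (91.4%) were in the first 25% of the span, the last was 201.1 kb from the start, at 44.0% of the span. One run of 46 peaks spaced at most 5 kb apart covered 43.28 kb, chr2:179468790-179512069. Its fullest 10-kb window, 50 to 60 kb from the start, held 22 peaks. The single Cdh2 peak was 120 bases long and lay 57.97 kb from the start. Cdh1 (E-cadherin), Cdh3 (P-cadherin) and Cdh15 (M-cadherin of muscle) held none.

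Of the 13 type II cadherins, 6 held 116 peaks, of which Cdh20 had 88. Cdh20 (chr1:104768340-104995481, 227.14 kb, plus strand) had 38.7 peaks per 100 kb, the densest of the members, and ranked 51 among all genes. Its peaks formed 3 large runs, and the first began just after the start printed above. That run held 33 peaks over 26.42 kb, the next 23 peaks over 13.23 kb (chr1:104838953-104852178) and the third 19 peaks over 11.27 kb (chr1:104892408-104903675). In the middle run 35.9% of the bases lay in a peak. Peaks were in 13 of its 23 windows of 10 kb, and the last peak stood alone at 216.2 kb after a gap of 80.96 kb.

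Cdh11, the OB-cadherin of mesenchyme and brain, held 12 minus-strand peaks (chr8:102632095-102785493, 153.4 kb). They ran from 1.442 to 74.33 kb from the start, with 2 runs of 4 peaks each, and its last 50% held none. Cdh10 held 9 peaks on the plus strand between 43.72 and 185.4 kb of its 197.34 kb, 3 of them within chr15:18894972-18898483. Cdh19, a cadherin of glial precursors in nerves, held 5 minus-strand peaks, all between 2.071 and 4.501 kb from the start of an 89.6-kb gene (chr1:110973031-110975585). These 5 were 110 to 144 bases long and never more than 0.83 kb apart. Cdh24 held 1 peak of 194 bases. Cdh18 also held 1, at 905.8 kb of 928.59 kb, and at 20 bases it was the shortest in the group. Cdh5 (VE-cadherin of blood vessels), Cdh6, Cdh7, Cdh8, Cdh9, Cdh12 and Cdh22 held none.

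Cdh20, Cdh7 and Cdh19 lie in this order along 6.209 Mb of chromosome 1 that holds 24 coding genes. The stretch held 145 peaks, 93 of them in Cdh20 and Cdh19, while Cdh7, at chr1:109982237-110145272 between them, had none. Of the 5 other cadherins, Cdh13, the lipid-anchored T-cadherin, held 4 plus-strand peaks between 219.4 and 374.7 kb of its 1184.9 kb. Cdh16, Cdh17, Cdh23 (which pairs with Pcdh15 in the tip links of hair cells) and Cdh26 held none.

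Delta protocadherins carried 268 of the 630 peaks (42.5%), all in Pcdh9 and Pcdh7, both of the delta-1 kind. Pcdh9 (chr14:93013700-93892834, 879.13 kb, minus strand) held 253 peaks, all on its own strand, which is 40.2% of the group's peaks and the tenth highest number among autosomal coding genes (rank 10). Peaks were frequent near its start and became sparse along the gene: 175 (69.2%) lay in the first 25% of the span and 6 (2.37%) in the last 50%. The run with most peaks, chr14:93841269-93888737, held 79 over 47.47 kb, or 1.664 per kb, and 27.7% of its bases were in a peak. The next runs held 52 peaks over 62.35 kb (chr14:93728774-93791120) and 30 peaks over 33.97 kb (chr14:93801014-93834980). A compact run of 11 peaks, chr14:93611458-93616849, had 43.8% of its 5.392 kb in peaks. In all, 233 of the 253 peaks stood in runs of at least 5. Peaks lay in 45 of the gene's 88 windows of 10 kb, and the fullest window, 10 to 20 kb from the start of the span, held 28. The longest peak of the group, 526 bases (chr14:93565600-93566125), lay 327.0 kb into Pcdh9. No other gene held a Pcdh9 peak.

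Pcdh7 (chr5:57716145-58133236, 417.09 kb, plus strand) showed another layout. Its 15 peaks all lay between 201.0 and 287.0 kb from the start, and 14 of the 15 were in the last 50% of the span. Of these, 5 formed a run of 4.4 kb, chr5:57956907-57961306. Pcdh1, the other autosomal delta-1 gene, and the delta-2 genes Pcdh8, Pcdh10, Pcdh17 and Pcdh18 held none. These 5 peakless genes span 4.541 kb (Pcdh8) to 94.003 kb (Pcdh17), all shorter than Pcdh9 and Pcdh7. Pcdh15, the hair-cell protocadherin, held 1 peak of 209 bases at 106.4 kb of its span, and Pcdh12 and Pcdh20 had none. The Pcdh15 peak, chr10:73202589-73202797, lies before the start that the promoter table gives for the gene, chr10:73821867.

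**Figure D3:**
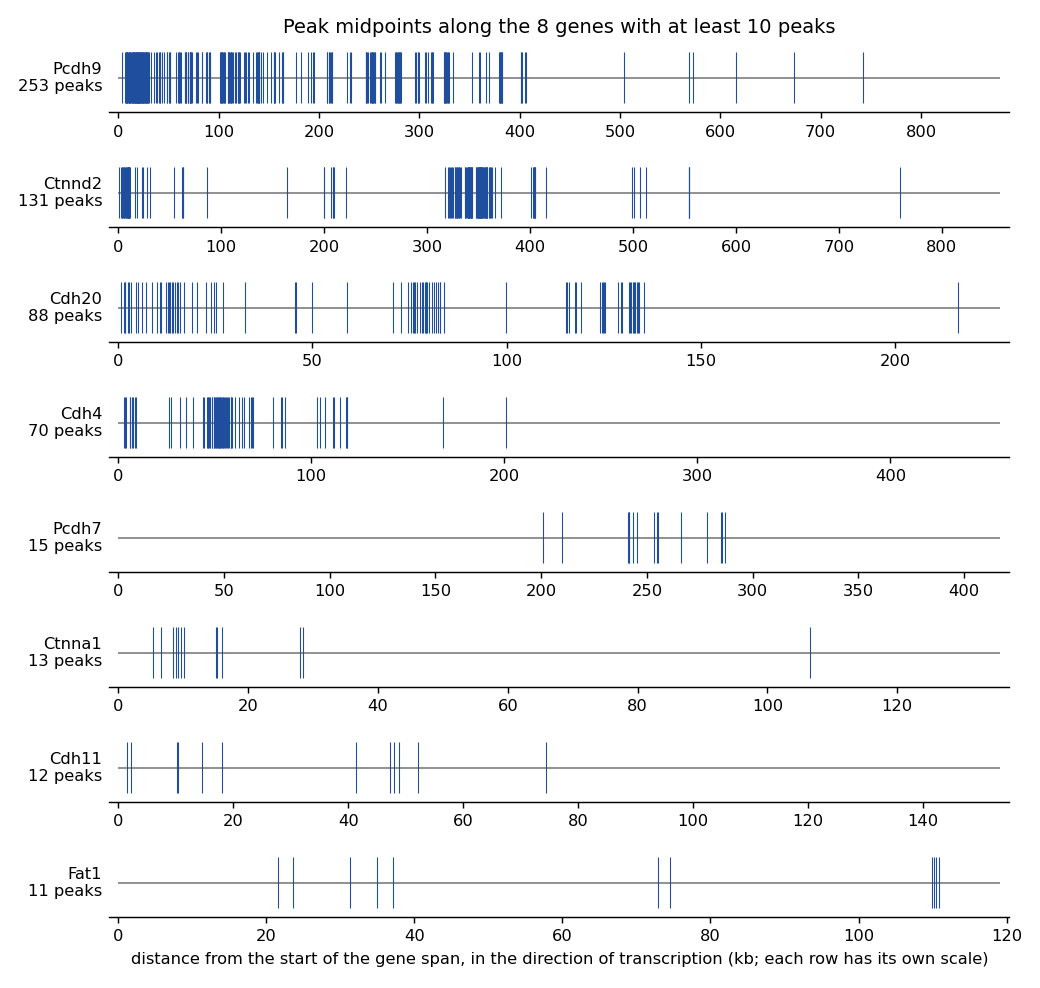
Midpoints of peaks (vertical ticks) along the 8 genes with at least 10 peaks, as distance in kb from the start of the gene span in the direction of transcription, each row on its own scale. Pcdh9 and Cdh4 peaks gather toward the start, Ctnnd2 and Cdh20 peaks form separate runs, and the 15 Pcdh7 peaks lie between 201.0 and 287.0 kb.

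In the maps of the 8 genes, the direction of Cdh4, Cdh11 and Ctnna1 was taken from the strand of their peaks, because they had no entry in the promoter table. The other 5 directions came from that table.

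Delta catenins bind the juxtamembrane part of cadherin tails, and both genes held peaks. Ctnnd2, the neural delta-catenin of dendrites, spans 856.81 kb (chr15:30172534-31029344, plus strand) and held 131 plus-strand peaks. The 2 runs with most peaks were 28 peaks over 30.34 kb at the start (chr15:30173348-30203689) and 73 peaks over 48.83 kb between 317.0 and 365.6 kb (chr15:30489367-30538199). The other peaks lay outside these, among them a run of 7 over 4.143 kb and a run of 4 over 3.086 kb. The fullest 10-kb window, 350 to 360 kb from the start, held 24 peaks. Unlike other members, Ctnnd2 shared most of its peaks with long noncoding RNA genes inside its span. Gm41284 (plus strand) held 56 peaks of the 73-peak run, and Gm31953 (plus strand) held 22 near the start. Gm41283 (plus strand) held 4, and the minus-strand genes Gm31841 and Gm52177 held 2 and 1. In total 85 Ctnnd2 peaks lay in another gene and 46 did not. Peaks inside the plus-strand noncoding genes are on the strand of both genes, so they cannot be assigned to Ctnnd2 or to the noncoding RNA. All 85 shared peaks of the group were in Ctnnd2, which is 13.5% of the group's peaks, beside 8.35% over all autosomal coding genes.

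Ctnnd1 (71.882 kb, minus strand) held 8 minus-strand peaks, 11.1 per 100 kb. Beside the peak at the inner start, 4 lay within 1.386 kb (chr2:84644057-84645442), 2 neighbours lay at 34.52 and 34.67 kb of the span, and 1 lay at 68.51 kb. Of the alpha catenins, which link the complex to actin, Ctnna1 held 13 plus-strand peaks in 135.88 kb. A run of 10 lay between 5.337 and 15.98 kb from the start, 2 stood at 28.05 and 28.38 kb, and the last was alone at 106.6 kb. Ctnna2, the neural alpha-catenin, and Ctnna3, the form of heart and testis, held none although both span more than 1000 kb.

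Among Fat and Dachsous genes, the giant cadherin Fat1 (chr8:44933100-45052257, 119.16 kb, plus strand) held 11 peaks. Its last 4 lay within 1.081 kb near the end of the gene, chr8:45042926-45044006, where 64.7% of bases were in a peak. The other 7 were spread from 21.54 to 74.49 kb. Dchs2 held 3 peaks close together, 4.974 to 7.03 kb into its 236.09 kb, and Fat3 held 1 peak of 210 bases at 484.8 kb. Fat2, Fat4 and Dchs1 (the ligand of Fat4 in planar polarity) held none. The 3 Celsr genes, the seven-pass cadherins of planar polarity, held none. Among calsyntenins, synaptic cadherin proteins that also bind kinesin, Clstn1 held 3 peaks at 9.282, 46.30 and 51.17 kb of 63.789 kb, and Clstn2 and Clstn3 held none.

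The peaks kept to a single strand in each gene. In the 14 members with at least 2 peaks, all 625 peaks were on the gene's majority strand, the one with more of its peaks (100%, exact Clopper-Pearson 95% interval 99.41 to 100%, for counting error only), beside 99.7% over all genes. A share above 50% is given by this definition. The interval treats the peaks as independent, although they lie in 14 genes and 253 of them in Pcdh9, so it is too narrow. In the 13 genes whose strand the promoter table gives, all 525 peaks were on the annotated strand, beside 98.5% of 32068 peaks over all genes. The 4 leading genes had no peak within 100 kb outside either end of the span.

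More of the group's peaks lay toward the start of the gene than toward its end, a difference that was not tested against other genes. In the group 56.5% of peaks were in the first 25% of the span, beside 36.0% over all genes and 43.7% in genes of at least 100 kb. In the last 50% of the span were 11.1%, beside 37.6% over all genes and 32.1% in those of at least 100 kb. The value rested in part on Pcdh9: without it the first 25% held 48.0%, and without the 4 leading genes it held 45.5%, with 34.1% in the last 50%. As genes, the 11 members with at least 5 peaks had a median of 50% in the first 25%, beside 22.2% for 1757 such genes. Among those of at least 100 kb, the median was 42.0% for 9 members and 31.7% for all 472 genes.

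**Figure D4:**
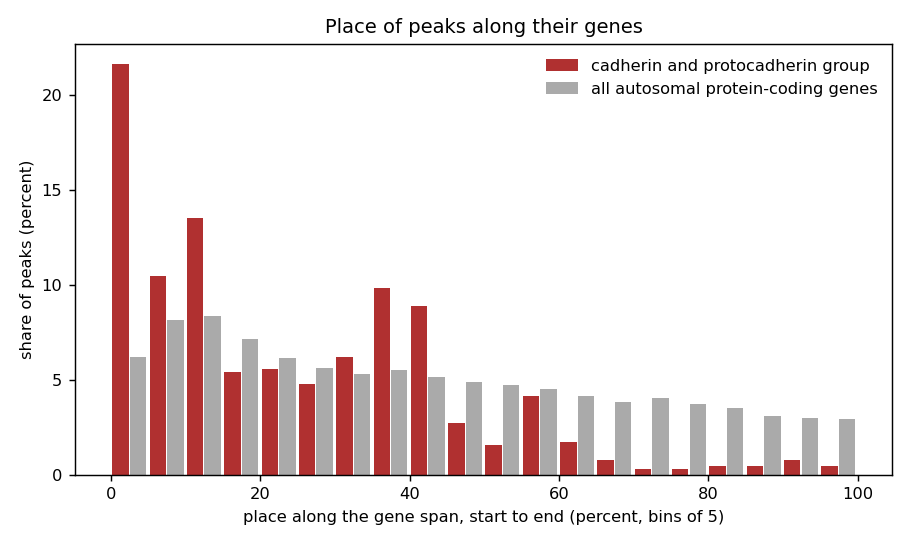
Share of peaks in percent (vertical axis) by place along the gene span from start to end, in bins of 5% (horizontal axis), for the cadherin and protocadherin group (red, 630 peaks) and all autosomal protein-coding genes (grey). The first bin held 21.6% of the group's peaks and 6.2% of all.

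The plot of place along the gene has a second rise from 35 to 45% of the span, with 62 and 56 peaks in its 2 bins. The 73-peak run of Ctnnd2, at 317.0 to 365.6 kb of 856.81 kb, lies there.

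Neighbouring peaks were a median of 594 bases apart (611 distances), beside 490 over all genes and 541 in those of at least 100 kb. Distances under 1 kb made up 64.5% in the group and 71.7% over all, and distances over 10 kb 8.67% and 6.17%. Within genes of at least 100 kb, distances over 10 kb made up 8.36% in the group and 9.04% over all, and those under 1 kb 64.5% and 67.7%. By gene, the median spacing was 491 bases in Ctnnd2, 558 in Cdh20, 559 in Pcdh9 and 643 in Cdh4. It was 1668.5 in Pcdh7, 2116 in Fat1 and 3455 in Cdh11. Without the 4 leading genes the median was 1601 bases. Peak length had a median of 156 bases (25th and 75th percentiles 127 and 201.5), beside 154 (122 and 202) over all genes. By gene the median length ran from 149 in Pcdh9 to 177.5 in Cdh4 among the 4 leaders.

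**Figure D5:**
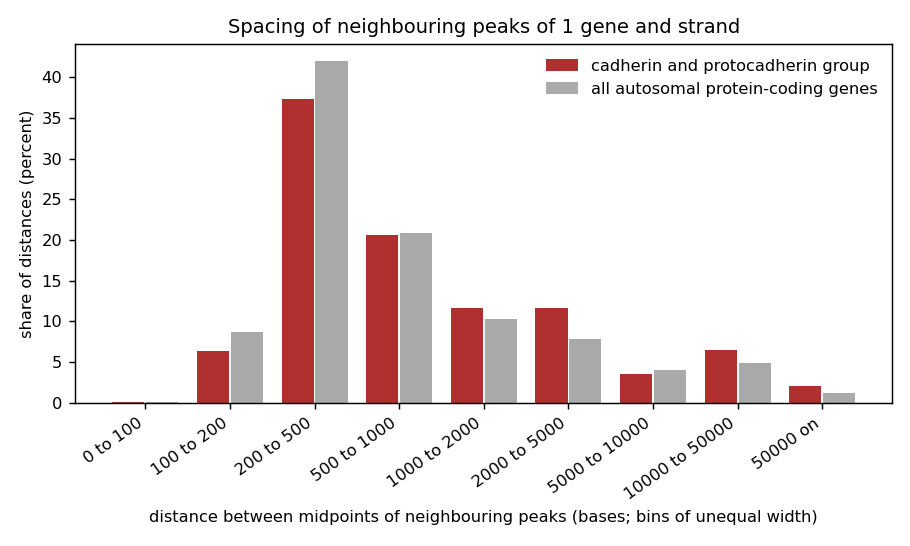
Share of distances between midpoints of neighbouring peaks of 1 gene and strand, in percent (vertical axis), by distance in bases (horizontal axis, bins of unequal width), for the cadherin and protocadherin group (red, 611 distances) and all autosomal protein-coding genes (grey, 37183). The bin from 200 to 500 bases was the fullest in both, with 37.3% and 42.0%.

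In the plot of spacing, the group had a larger share than all genes from 2000 to 5000 bases, 11.6% beside 7.8%, and a smaller one from 200 to 500 bases.

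Genes that work with cadherins were counted in the same way. Of 20 partners, 11 held a peak (55.0%, background 19.4%), and 3 held at least 10 (background 5.00%). These were Fyn with 65 and Src with 13, the kinases that act at junctions, and Fmnl2 with 46, a formin that assembles actin. Of the other partners with a peak, Pkp4 held 4, Ptprf held 3 and the rest held 1 each. The partners had a median span of 78.74 kb, and 31.3% of all genes from 30 to 100 kb held a peak. Fyn spans 195.6 kb and Fmnl2 276.5 kb, and 14.4% of all genes of at least 100 kb held at least 10 peaks. For genes under 100 kb, such as Src with 47.93 kb, it was 3.81%. Ctnnb1, which encodes beta-catenin, held 1 peak, and the related Jup and Arvcf held none. Of 18 planar polarity and Hippo genes, 7 held a peak (38.9%), with 47 in Yap1, 29 in Ptk7 and 27 in Tead1. Of the core polarity genes in that list, the receptor gene Fzd3 held 8, Prickle1 held 7 and Prickle2 held 2, while Fzd6, Vangl1, Vangl2, Dvl1, Dvl2 and Dvl3 held none. None of 13 desmosomal cadherins and other superfamily genes held a peak. The median span was 53.86 kb in the polarity list and 32.48 kb in these 13, so 31.3% is the nearer background for both.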

How the data were processed

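FLASH was done on neural progenitor cells with antibody to DHX9 and with IgG, 2 libraries each, grouped by sample titles. Per the labels' protocols, random adapter bases served to merge PCR duplicates, and IgG samples were mixed with DHX9 samples after ligation. The authors deposited 1 list of peak positions, chromosome, start, end and strand, made with PEAKachu per the file itself. Its score column is empty. Bowtie2 2.2.6, hg19 and mm10 are named in the submitters' processing notes. The peak caller's version and threshold, whether replicates were pooled for calling and the handling of reads mapping to several places are not given in the sources used here. Peaks in repeats or paralogs may therefore be misplaced.

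A peak belonged to every RefSeq GRCm38.p6 gene whose span held its midpoint. The spans give no exons, so introns, exons and untranslated regions were not told apart. Strand came from the RefSeq promoter table, or from most of the gene's peaks where that had no entry (Cdh2, Cdh4, Cdh11, Cdh13, Cdh19 and Ctnna1). Windows of 10 kb and runs with gaps of at most 5 kb were counted from midpoints. Places along a gene were counted from the edge of its RefSeq span, which can lie far from a start in the promoter table. From those starts, the first peak lay at 4434 bases in Fat1 and at 418252 bases in Cdh18. The rule was to describe members with at least 10 peaks singly and to name the others with their counts. Positions are also given for members with fewer peaks, and those details were chosen after their values were seen. Of the partner and polarity lists, genes with at least 10 peaks are named. Other genes of these lists were chosen after their values were seen. Members and lists were chosen with earlier results of these data known. The counting was tested on simulated peaks, with Python 3.11.15, pandas 2.3.3, numpy 2.4.6, scipy 1.17.1 and matplotlib 3.10.9. Alternatives were any overlap of at least 1 base, peaks in no other gene, peaks of at least 153 bases, merging within 50 bases, 1 strand and at least 3 peaks.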

Additional observations from a re-analysis of the deposited data

Results flagged for a closer look

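The clustered protocadherin genes, which were outside the group described above, held 30 distinct peaks, all on the plus strand. The value is listed because no comparison was made for these genes by themselves. The coding genes among them are part of the background of all autosomal coding genes. Of the 30 peaks, 7 lay in the alpha cluster and 23 in the gamma cluster, and the 22 genes of the beta cluster held none. Genes of the alpha and gamma clusters overlap, so the 30 peaks fell in 34 gene spans and cannot be assigned to single genes.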

How the results depend on the processing

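No paired analysis was possible because the peak list holds no value for any library, so leaving out a replicate, depth and replicate error were also out of reach. Of 37 alternative values, 27 stayed the same by the rules used (within 1.5 times for counts, within the 95% interval for other values) and 10 moved. The intervals treat the peaks of a gene as independent of each other. Values over all genes under these settings are not given, so the direction of a difference from them was not compared. With peaks of at least 153 bases alone, the 630 peaks became 335, the density fell from 0.04156 to 0.0221 per kb and the median distance rose from 594 to 819 bases. That setting leaves out peaks shorter than the list's median by construction. Members with a peak were then 15 in place of 19, and 14 with at least 3 peaks required. The counts of 14 of the 19 genes moved by over 1.5 times, and Cdh18, Cdh19, Cdh2 and Clstn1 had none. Merging peaks gave 558 peaks and a median distance of 742 bases. Without peaks shared with another gene, Ctnnd2 went from 131 to 46 peaks and the share in the first 25% of the span from 56.5% to 61.3%. Chosen after the data were seen, leaving out Pcdh9 gave a share of 48.0% and a median length of 164 bases in place of 156. Leaving out Pcdh9, Ctnnd2, Cdh20 and Cdh4 gave 45.5%, a median length of 146 and a median distance of 1601 bases.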

Other observations

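On the X chromosome, the nonclustered protocadherin gene Pcdh11x held 3 peaks in 620.4 kb, and Pcdh19 held none in 106.2 kb.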
